A study of Rattus norvegicus with 12 samples.

Results

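The genes described here are 8 regulators of transcription that shape the identity and fuel use of the kidney's proximal tubule: Hnf4a, Ppara, Nr1h4, Rxra, Ppargc1a, Ppargc1b, Esrra and Esrrg. They were taken by name, as a fixed list that was chosen with earlier results of these data known. They make up 8 of the 20455 rat genes with at least 1 read in any library. All 8 passed the filter on low counts and are among the 14664 genes tested. RNA was sequenced from rat kidney in 3 groups of 4 libraries. The CPB+Nitrite group had cardiopulmonary bypass, in which a heart-lung machine takes over the circulation, and was also given nitrite, a salt that the body can turn into nitric oxide. The CPB group had bypass without nitrite, and the sham group had the sham procedure. The series is about kidney injury after cardiac surgery and asks whether nitrite lessens it. The labels give no strain, sex, age, nitrite dose, bypass duration or sampling time, and name no anaesthetic or other agent that the groups share. They do not say that the replicates came from separate animals, so each p-value measures the spread between these libraries, part of which may be technical.

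The proximal tubule reabsorbs most of the filtered glucose, amino acids, phosphate and organic ions, and it draws its energy mainly from the oxidation of fatty acids in mitochondria. Its cells keep their mature character under HNF4A, a nuclear receptor that drives transporter and metabolic genes. PPAR alpha, which is switched on by fatty acids, and FXR (the product of Nr1h4), which is switched on by bile acids, bind DNA together with RXR alpha (Rxra). The coactivators PGC-1 alpha (Ppargc1a) and PGC-1 beta (Ppargc1b) bind to these receptors and to the orphan receptors ERR alpha (Esrra) and ERR gamma (Esrrg), and in this way raise the output of mitochondrial genes.

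Promoter sequences were found in a RefSeq table for 7 of the 8 genes, with 11 annotated start sites among them, and Nr1h4 had no entry. The table's build is GRCr8, which differs from mRatBN7.2, the build of the authors' files. Each promoter was read as the 250 bases before the start and searched for motifs on both strands. TGACGTCA (the cyclic AMP response element, bound by CREB) occurred in 1 member promoter and in 1.59% of the 33469 rat promoters in the table. AGGTCA, the core bound by many nuclear receptors, was found in 1 of the 11 member promoters, that of an Esrrg start site, and in 14.1% of all promoters. TCAAGGTCA (bound by ERRs), CAAAGTCCA (bound by HNF4 factors) and the direct repeat of AGGTCA with any 1 base between its copies (bound by pairs of PPAR and RXR) had no match in these windows and occurred in 0.388%, 0.338% and 0.0508% of all promoters. AGGTCA lies inside TCAAGGTCA and the direct repeat, so those searches overlap. The promoter of Ppargc1a (chr14:63634058-63634307, plus strand, GRCr8) is shown because the levels of Creb1 and its coactivators are given further on, and capitals mark the motif.
Ppargc1a: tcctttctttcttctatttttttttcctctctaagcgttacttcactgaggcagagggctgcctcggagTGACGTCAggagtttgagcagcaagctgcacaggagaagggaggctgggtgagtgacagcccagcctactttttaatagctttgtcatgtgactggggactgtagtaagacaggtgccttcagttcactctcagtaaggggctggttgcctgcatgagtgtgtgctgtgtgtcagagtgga
The match begins 181 bases before the start site. A match describes the letters and is not evidence of binding.

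The libraries held 16.8 to 25.8 M estimated reads, and levels below are CPM, that is, counts per M reads after TMM scaling of the libraries. The 19 measured proximal tubule markers, such as the phosphate transporter Slc34a1 and the endocytic receptor Lrp2, had reads in every library. Their mean log2 level, taken relative to the sham mean, was -0.47 to -0.29 in CPB+Nitrite, -0.61 to -0.35 in CPB and -0.17 to 0.09 in sham. Correlations between libraries of a group were 0.896 to 0.959 in CPB+Nitrite, 0.968 to 0.982 in CPB and 0.961 to 0.979 in sham. CPB+Nitrite 2 stood apart. Its summed thick limb and distal tubule markers reached 990 CPM, against 5602 to 8561 CPM in CPB and 7536 to 10239 CPM in sham. Its summed endothelial markers reached 1351 CPM, against 198 to 369 CPM in CPB and 214 to 403 CPM in sham. Sham 1 held the highest summed adipocyte markers, at 433 CPM. The part of these shifts in the results was not tested.

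Bypass went with lower levels of most of these regulators. In CPB versus sham, 6 of the 8 genes fell, none rose, and all 8 log2 changes were negative, with a median of -1.17 against -0.05 over all genes tested. The 6 were Hnf4a, Ppara, Nr1h4, Ppargc1a, Esrra and Esrrg. By the same edgeR test (adjusted p under 0.05) 21.5% of all genes were called lower and 21.7% higher. The same 6 genes had no overlap between the groups, with every CPB library below every sham library, as had 24.8% of all genes. Because the list was chosen with earlier results known, its contrast with all genes is not an independent test. In whole tissue, fewer cells of a type and less RNA per cell cannot be told apart.

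Hnf4a, the factor that maintains the proximal tubule programme, had 307, 246, 309 and 183 CPM in CPB kidneys, against 764, 613, 743 and 747 CPM in sham kidneys. The groups were far apart, since the highest CPB library lay below the lowest sham library. Hnf4a fell by 1.46 on the log2 scale (SE 0.39, 95% interval -2.31 to -0.61, adjusted p = 0.0115 by edgeR). In CPB+Nitrite kidneys it had 278, 223, 841 and 207 CPM. Of these, 3 libraries lay within the CPB range and CPB+Nitrite 3 lay above every sham library. The gene lies on chromosome 3 from 152186787 to 152248320 on the plus strand of mRatBN7.2 (ENSRNOG00000008895).

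Of the members that ligands switch on, Ppara had the largest log2 change. Ppara (chromosome 7, 116832756 to 116895346, plus strand) had 2.37, 2.32, 2.04 and 1.88 CPM in CPB kidneys, against 6.11, 9.09, 8.95 and 11.2 CPM in sham kidneys. The CPB values were close together and all below the sham range. Its log2 change of -2.03 (SE 0.41, 95% interval -2.92 to -1.14, adjusted p = 0.00309 by edgeR) left 0.245 of the sham level. CPB+Nitrite kidneys had 1.82, 1.36, 5.49 and 4.93 CPM. These split into 2 libraries below the CPB range and 2 between the CPB and sham ranges. Ppara was the member with the fewest reads, from 28 to 231 per library.

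Nr1h4, which encodes the bile acid receptor FXR (chromosome 7, 23846122 to 23942047, minus strand), had 19.8, 18.8, 24.2 and 19.2 CPM in CPB kidneys. Sham kidneys had 40.3, 45.0, 35.1 and 43.6 CPM, again with no overlap. Its log2 change was -1.003 (SE 0.20, 95% interval -1.44 to -0.56, adjusted p = 0.0031 by edgeR). The 4 CPB+Nitrite libraries had 19.1, 25.0, 40.0 and 31.5 CPM, and only the first of them lay within the CPB range. Rxra, the shared partner of these receptors (chromosome 3, 10989832 to 11073712, plus strand), behaved differently in size. It had 21.5, 25.4, 25.1 and 23.3 CPM in CPB kidneys, against 34.8, 26.2, 25.2 and 38.8 CPM in sham kidneys. CPB 2 lay above sham 3, so the groups overlapped. The log2 change of Rxra was -0.39 (SE 0.19, 95% interval -0.81 to 0.03, adjusted p = 0.114 by edgeR) and did not pass the test. CPB+Nitrite kidneys had 27.6, 22.9, 32.8 and 18.6 CPM of Rxra, a range that holds the whole CPB range.

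Of the coactivators, 1 passed the test. Ppargc1a, the inducible coactivator of mitochondrial genes (chromosome 14, 58861144 to 59512656, plus strand), had 6.91, 13.7, 11.0 and 9.24 CPM in CPB kidneys, against 19.6, 36.2, 23.4 and 40.4 CPM in sham kidneys. No CPB library reached the sham range. Its log2 change was -1.55 (SE 0.37, 95% interval -2.34 to -0.76, adjusted p = 0.00634 by edgeR). CPB+Nitrite kidneys had 7.40, 14.4, 27.4 and 17.03 CPM, from within the CPB range to within the sham range. Ppargc1b, its relative (chromosome 18, 54758902 to 54861194, minus strand), had 2.29, 4.64, 4.81 and 4.15 CPM in CPB kidneys, against 4.73, 6.92, 10.3 and 10.9 CPM in sham kidneys. CPB 3 lay just above sham 1. The log2 change of Ppargc1b was -1.05 with the widest SE of the 8 genes, 0.48 (95% interval -2.09 to -0.0039, adjusted p = 0.094 by edgeR), and it did not pass. In CPB+Nitrite kidneys Ppargc1b had 1.90, 2.45, 9.01 and 8.002 CPM, with 1 library below the CPB range, 1 at its low end and 2 within the sham range. That Ppargc1a passed and Ppargc1b did not does not show that their changes differed, and that difference was not tested.

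The orphan receptors that work with these coactivators both fell. Esrra, which drives genes of the respiratory chain (chromosome 1, 204104101 to 204114268, minus strand), had 73.2, 72.7, 66.3 and 61.8 CPM in CPB kidneys. Sham kidneys had 124, 149, 137 and 112 CPM, and the groups were well apart. Its log2 change of -0.93 was among the smaller ones but was the most precise of the 8 (SE 0.14, 95% interval -1.23 to -0.63, adjusted p = 0.00107 by edgeR). CPB+Nitrite kidneys had 80.1, 98.5, 114 and 103 CPM, all above the CPB range and 1 of them within the sham range. The annotated span of Esrra lies wholly within that of Prdx5, a peroxiredoxin gene on the same strand, and whether reads were divided between these genes was not tested. The Esrra counts were not whole numbers in any of the 12 libraries, but neither were those of Hnf4a, which overlaps no other annotated gene. Prdx5 itself had a log2 change of -0.12 (SE 0.15, adjusted p = 0.523 by edgeR) in CPB versus sham. Esrrg (chromosome 13, 99564669 to 99783397, plus strand) had 9.68, 10.3, 14.6 and 12.5 CPM in CPB kidneys, against 18.1, 36.7, 23.4 and 37.7 CPM in sham kidneys. It had no overlap between the groups and a log2 change of -1.30 (SE 0.32, 95% interval -1.998 to -0.60, adjusted p = 0.00779 by edgeR). CPB+Nitrite kidneys had 7.56, 13.2, 22.1 and 11.0 CPM of Esrrg, with CPB+Nitrite 3 within the sham range and the rest within or below the CPB range.

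**Figure D1:**
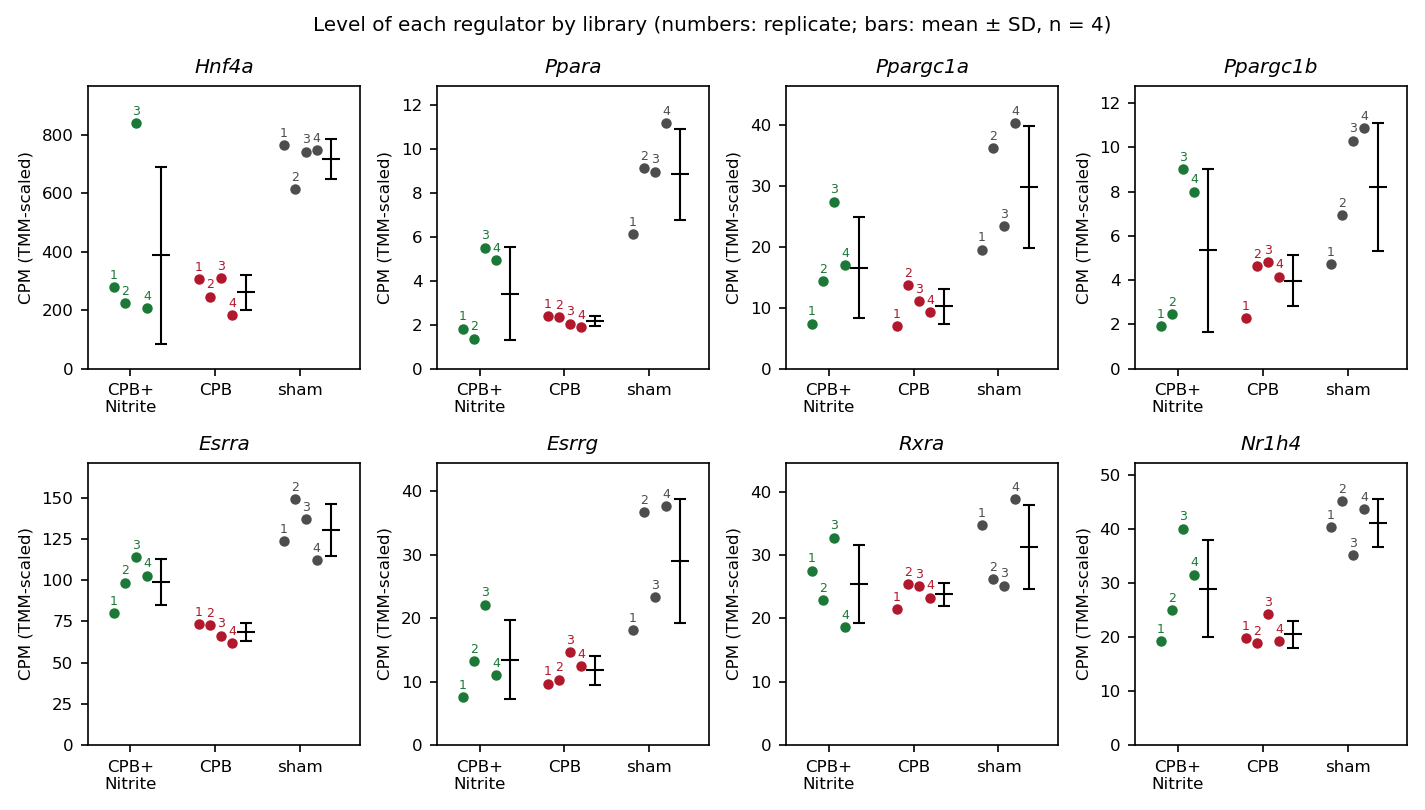
Level of each of the 8 genes in CPM after TMM scaling (vertical axis, linear, from 0), with 1 point per library labelled by its replicate number, for CPB+Nitrite, CPB and sham from left to right and the mean ± SD (n = 4) beside each group. All CPB points lie below all sham points in 6 panels, while CPB+Nitrite spreads across both ranges, with Hnf4a at 841 CPM in replicate 3 and at 207 to 278 CPM in the others.

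The 6 calls held in each of the 21 alternative fits, which included other scalings, other tools and the removal of each library in turn. Ppargc1b passed in 3 of them, among which were limma voom with sample weights (adjusted p = 0.040, where 31.7% of all genes were called lower) and an edgeR fit of the 2 groups alone (adjusted p = 0.0186, 26.9% called lower). Rxra passed in 1, with total counts alone as the scaling (adjusted p = 0.0301 by edgeR). Under that scaling the median log2 change of all genes was -0.24, against -0.05 with TMM. It gave 2281 higher and 4269 lower calls (34.8% higher, and 29.1% of all genes called lower), against 3184 higher and 3148 lower with TMM (50.3% higher).

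Proximal tubule markers moved with the members, at smaller size. Of the 19 measured markers 7 were called lower in CPB versus sham and 0 higher, with a median log2 change of -0.60 (at unadjusted p under 0.05, also 7 lower and 0 higher). Slc34a1 (-0.78, adjusted p = 0.00634) and the organic anion transporter Slc22a6 (-1.06, adjusted p = 0.00109) fell, by edgeR, while Gpx3, a secreted peroxidase, had -0.09 (adjusted p = 0.748) and Napsa, a tubular protease, had -0.07 (adjusted p = 0.77). Set against the mean log2 level of the 19 markers in the same library, Hnf4a stood at -1.35 to -0.69 in CPB and at -0.05 to 0.04 in sham. Ppara stood at -1.68 to -1.30 in CPB and -0.55 to 0.27 in sham, and Nr1h4 at -0.67 to -0.40 in CPB and -0.24 to 0.31 in sham. These groups stayed apart. Ppargc1a was apart by little, at -1.51 to -0.610 in CPB and -0.600 to 0.51 in sham. Esrra (-0.62 to -0.299 in CPB and -0.300 to 0.37 in sham) overlapped at the edge, and Esrrg (-0.98 to -0.53 in CPB and -0.66 to 0.58 in sham) overlapped more. The uncalled genes overlapped too, with Ppargc1b at -1.20 to -0.28 in CPB and -0.76 to 0.38 in sham, and Rxra at 0.01 to 0.22 in CPB and -0.31 to 0.24 in sham. Many of the 19 markers, such as Slc34a1, Slc22a6 and Lrp2, are also among the HNF4A-dependent genes described below. Their mean is therefore not a reference independent of Hnf4a. Markers of other cell types also moved, beside the 21.5% of all genes called lower and 21.7% called higher. Those called lower, with none higher, were 4 of 9 thick limb and distal markers, 5 of 12 collecting duct, 1 of 8 podocyte, 4 of 10 fibroblast and smooth muscle and 3 of 7 adipocyte markers. Leukocyte markers had 3 of 10 higher and 2 lower, endothelial markers 2 of 10 higher and 3 lower, and urothelial markers 1 of 7 higher and 2 lower. The part of the markers' shift in the members' changes was not tested.

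**Figure D2:**
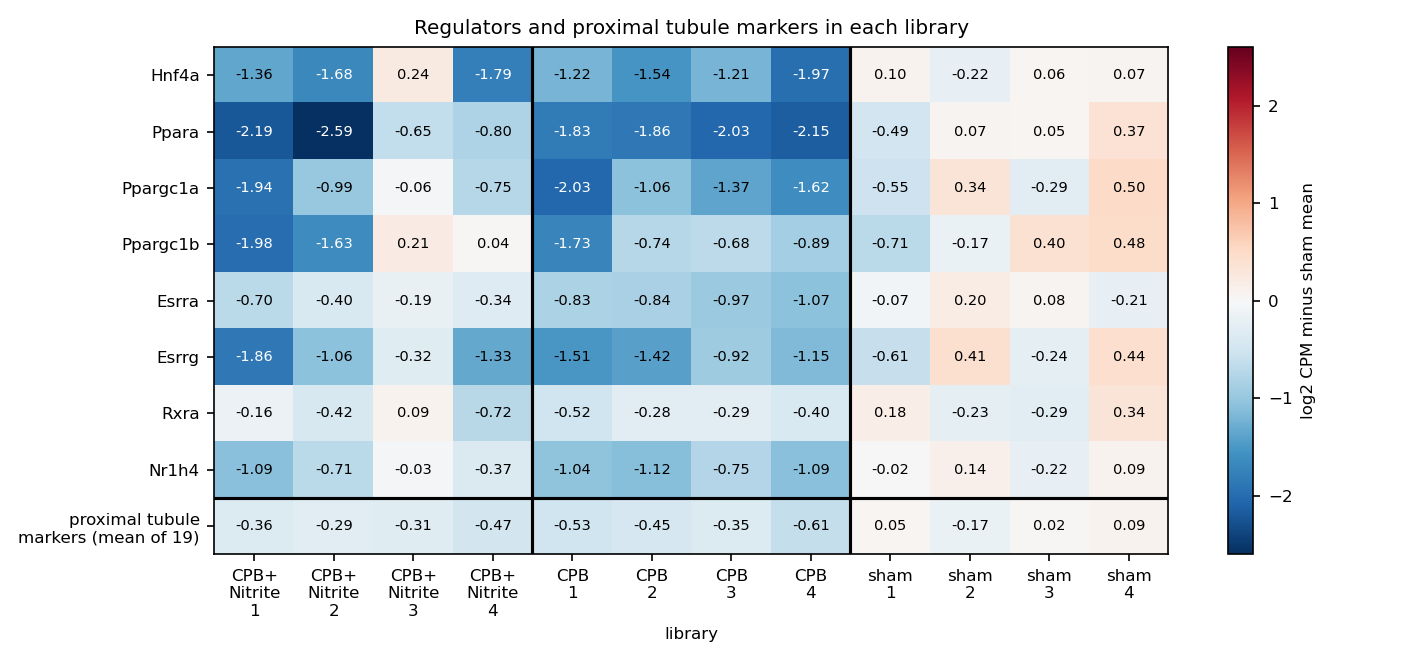
Difference of log2 CPM from the sham mean (colour and printed value) for the 8 genes and for the mean of 19 proximal tubule markers (rows), in the CPB+Nitrite, CPB and sham libraries (columns). CPB+Nitrite 3 is near or above the sham mean for most of the genes, with 0.24 for Hnf4a, while its markers stand at -0.31.

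Nitrite with bypass went with higher fitted levels than bypass alone for all 8 genes, but 0 of the 8 passed the edgeR test at an adjusted p under 0.05, as did 0 of the 14664 genes tested (0%). The smallest adjusted p over all genes was 0.0556. At an unadjusted p under 0.05, 2 members were higher (Esrra and Nr1h4) and 17.3% of all genes were higher. The largest fitted differences were those of Ppargc1a (0.70, SE 0.36, 95% interval -0.09 to 1.48), Ppara (0.65, SE 0.40, -0.23 to 1.53) and Hnf4a (0.57, SE 0.39, -0.27 to 1.40). These intervals hold 0 and also hold more than a doubling of the level, so the data do not set the size of the difference. Ppargc1b (0.43, SE 0.48), Esrrg (0.20, SE 0.32) and Rxra (0.10, SE 0.19) had smaller values.

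At an unadjusted p under 0.05 by edgeR, 17.3% of all genes were higher in CPB+Nitrite than in CPB. Markers of several cell types were also higher at this threshold, though none passed the adjusted edgeR test. They were 6 of 10 endothelial markers (median log2 change 1.65), 4 of 10 fibroblast and smooth muscle (1.22), 4 of 7 urothelial (3.52), 1 of 7 adipocyte (1.93), 4 of 8 podocyte (0.75), 5 of 12 collecting duct (0.40) and 2 of 10 leukocyte markers (0.29). The proximal tubule markers had 3 of 19 (0.23) and the thick limb and distal markers 0 of 9 (0.19). The shares of proximal tubule, adipocyte and leukocyte markers were near that of all genes. The mean log2 level of the endothelial markers, relative to the sham mean, was 2.04 in CPB+Nitrite 2. It was -0.44, 0.04 and 0.32 in CPB+Nitrite 1, 3 and 4, and -1.13 to -0.38 in CPB. The part of all these markers in the differences between CPB+Nitrite and CPB was not tested.

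Esrra was the member nearest to a call. It averaged 98.8 ± 14.1 CPM in CPB+Nitrite kidneys and 68.5 ± 5.47 CPM in CPB kidneys (SD, n = 4 each), and it was the only member without overlap between these groups, as were 6.44% of all genes in the higher direction. Its log2 change was 0.53 (SE 0.14, 95% interval 0.23 to 0.83, adjusted p = 0.0611 by edgeR). DESeq2 gave an adjusted p of 0.00953 for it and called no other member, with 9.15% of all genes called higher, and limma voom gave 0.125. Nr1h4 averaged 28.9 ± 8.96 CPM in CPB+Nitrite kidneys and 20.5 ± 2.51 CPM in CPB kidneys (SD, n = 4 each), with a log2 change of 0.50 (SE 0.20, adjusted p = 0.129 by edgeR). Without CPB+Nitrite 1, Esrra (adjusted p = 0.0188) and Nr1h4 (adjusted p = 0.0371) passed the edgeR test, and 10.6% of all genes were called higher. Over the 21 alternatives the adjusted p ran from 0.00953 to 0.167 for Esrra and from 0.0371 to 0.298 for Nr1h4. Without CPB+Nitrite 3, the log2 changes of Hnf4a (-0.15), Esrrg (-0.15) and Rxra (-0.05) turned negative.

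**Figure D3:**
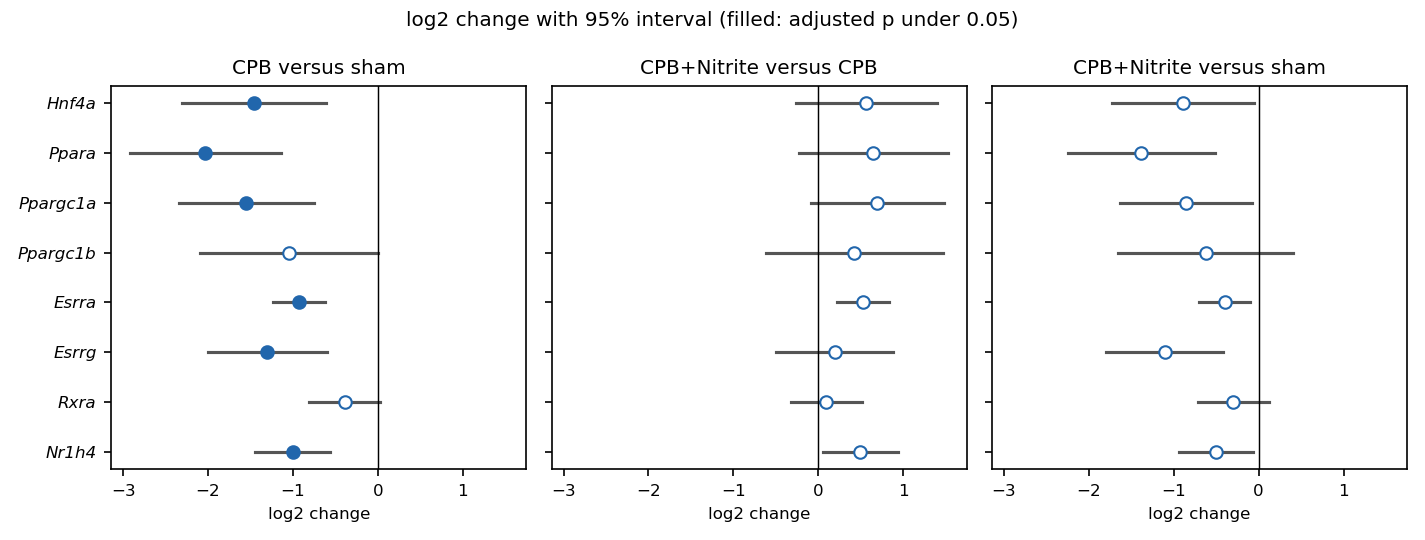
Fitted log2 change (points) and 95% interval (lines) of the 8 genes in CPB versus sham, CPB+Nitrite versus CPB and CPB+Nitrite versus sham (panels), with filled points for an adjusted p under 0.05 by edgeR. Filled points are in the first panel only, for 6 genes from -2.03 to -0.93, and the middle panel has all 8 points above 0.

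Set against sham, the CPB+Nitrite kidneys had lower fitted levels of all 8 genes, with log2 changes from -1.38 for Ppara to -0.30 for Rxra. None passed the edgeR test, by which 0.955% of all genes were called lower and 3.85% higher. At an unadjusted p under 0.05, 6 members were lower and 11.1% of all genes were lower. Ppara (-1.38, SE 0.40, adjusted p = 0.0598) and Esrrg (-1.11, SE 0.32, adjusted p = 0.06) came closest, by edgeR. Ppara averaged 3.40 ± 2.11 CPM in CPB+Nitrite and 8.83 ± 2.08 CPM in sham (SD, n = 4 each) and was the only member without overlap, as were 5.87% of all genes in the lower direction. Hnf4a averaged 387 ± 304 CPM in CPB+Nitrite and 717 ± 69.6 CPM in sham (SD, n = 4 each), with a log2 change of -0.89 (SE 0.39, adjusted p = 0.161 by edgeR).

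These calls turned on the method and on CPB+Nitrite 3. DESeq2 called Ppara, Esrra and Esrrg lower (5% of all genes were called lower). Limma voom, which gives less weight to libraries that depart from their group, called Hnf4a, Ppara, Nr1h4, Ppargc1a, Esrra and Esrrg (8.67% of all genes were called lower). Without CPB+Nitrite 3 the edgeR test called the same 6 members, with Hnf4a at -1.60 (adjusted p = 0.00107), and 9.11% of all genes. The comparisons of CPB with sham, of CPB+Nitrite with CPB and of CPB+Nitrite with sham share their libraries in pairs, so their values are not independent of each other.

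The 4 CPB+Nitrite libraries differed among themselves more than those of the other groups. In CPB+Nitrite 3, 7 of the 8 members reached at least the lowest sham value and 0 lay at or below the highest CPB value. In CPB+Nitrite 1, 2 and 4 the members that reached the sham range numbered 1, 0 and 1, and those at or below the highest CPB value numbered 6, 5 and 3. The median over members of the log2 difference from the sham mean was -1.61, -1.02, -0.04 and -0.73 in CPB+Nitrite 1 to 4, against -1.36 to -0.94 in CPB and -0.28 to 0.35 in sham. CPB+Nitrite 4 was mixed, with Ppargc1b (0.04) at the sham mean and Hnf4a (-1.79) near the lowest CPB value. For all 8 genes the coefficient of variation was highest in CPB+Nitrite. That of Hnf4a was 78.5% in CPB+Nitrite, 22.9% in CPB and 9.7% in sham.

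Relatives of the members did not all move with them. In CPB versus sham, Hnf4g, the close relative of Hnf4a, fell by 2.23 on the log2 scale (SE 0.44, adjusted p = 0.00286), with means of 5.38 CPM in CPB and 25.2 CPM in sham. Esrrb, the other ERR gene, fell by 2.25 (SE 0.55, adjusted p = 0.00712). Ppard, which like Ppara senses fatty acids, rose by 0.72 (SE 0.19, adjusted p = 0.0111), with means of 41.0 CPM in CPB and 24.9 CPM in sham. Pprc1, the PGC-1-related coactivator, rose by 2.06 (SE 0.42, adjusted p = 0.00322), with means of 83.2 CPM in CPB and 19.97 CPM in sham. Rxrb rose by 0.46 (SE 0.15, adjusted p = 0.0264), and Pparg, the adipocyte PPAR, fell by 1.41 (SE 0.51, adjusted p = 0.0407), all by edgeR. Of the 7 adipocyte markers 3 were called lower, and 6 were lower at an unadjusted p under 0.05, with a median log2 change of -2.25, and their part in the change of Pparg was not tested. None of these passed in CPB+Nitrite versus CPB, and in CPB+Nitrite versus sham Ppard was called, at 0.84 (SE 0.19, adjusted p = 0.0402 by edgeR).

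**Figure D4:**
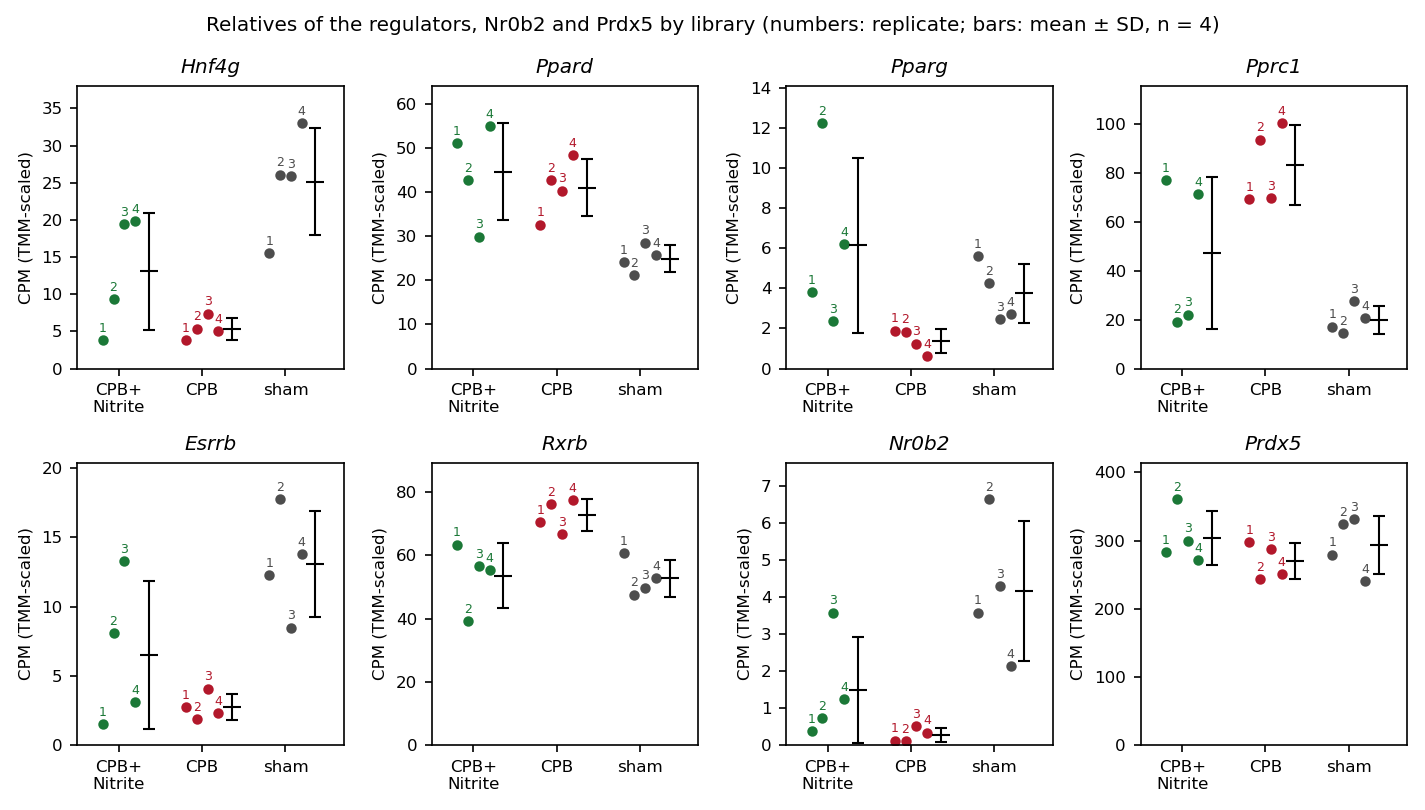
Level in CPM after TMM scaling (vertical axis, linear, from 0) of 6 relatives of the regulators, of Nr0b2, a target of FXR, and of Prdx5, which overlaps Esrra, with 1 point per library labelled by replicate and the mean ± SD (n = 4), for CPB+Nitrite, CPB and sham from left to right. Hnf4g and Esrrb are low and Ppard and Pprc1 high in the CPB libraries, and Prdx5 ranges overlap.

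**Figure D5:**
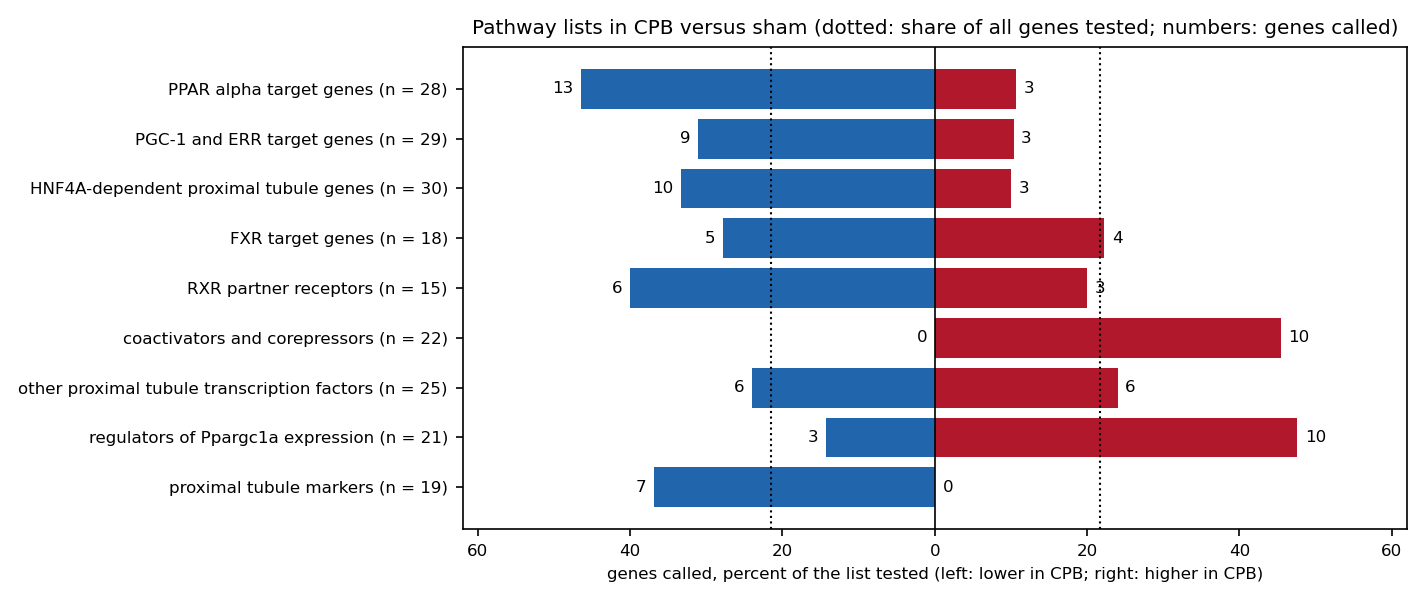
Share of the tested genes of each list (percent, horizontal axis) that were called lower in CPB than in sham (bars to the left) or higher (bars to the right), with the number called beside each bar and dotted lines at the shares over all genes, 21.5% lower and 21.7% higher. PPAR alpha targets have 13 genes to the left and 3 to the right, while coactivators and corepressors have 0 to the left and 10 to the right.

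The target genes of PPAR alpha, mostly enzymes of fatty acid oxidation, were lower in CPB kidneys more often than higher. Of 28 tested, 13 fell and 3 rose, with a median log2 change of -0.43, against 21.5% lower, 21.7% higher and a median of -0.05 over all genes. Cpt1a, which admits long-chain fatty acids to mitochondria, fell by 1.63 (SE 0.38, adjusted p = 0.00584). Acsl1, which activates fatty acids, fell by 1.62 (SE 0.23, adjusted p = 0.00101). Slc25a20, the carnitine carrier, fell by 1.07 (SE 0.18, adjusted p = 0.00136), and the peroxisomal enzymes fell too, with -1.30 (SE 0.26) for Ehhadh and -0.72 (SE 0.16) for Acaa1a, all by edgeR. Plin2, which coats lipid droplets, rose by 2.82 (SE 0.62, adjusted p = 0.00445 by edgeR). Without CPB 3 or without sham 1, 8 of the list fell.

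Targets of PGC-1 and the ERRs, which supply the citric acid cycle and respiratory chain, included 9 genes that fell and 3 that rose of 29 tested in CPB versus sham, with a median of -0.34. Sirt3, a mitochondrial deacetylase, fell by 1.26 (SE 0.22, adjusted p = 0.00164). Slc25a4, an ATP and ADP carrier, fell by 0.84 (SE 0.17) and the complex I subunit Ndufs1 fell by 0.67 (SE 0.15). Sod2, the mitochondrial superoxide dismutase and also a known target of NF-kappa B, rose by 2.13 (SE 0.38, adjusted p = 0.00181), and Nrf1, a factor for mitochondrial genes, rose by 0.54 (SE 0.14, adjusted p = 0.00835), all by edgeR. The number that fell was 5 without CPB 2, CPB 4, sham 1, sham 2 or sham 3.

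Of 30 HNF4A-dependent proximal tubule genes tested, 10 fell and 3 rose in CPB versus sham, with a median of -0.49. Many of these genes are also among the proximal tubule markers given above. Pck1, an enzyme of glucose synthesis, fell by 3.81 (SE 0.58, adjusted p = 0.00107), with means of 326 CPM in CPB and 4574 CPM in sham. Slc22a6 fell by 1.06 (SE 0.16), the scaffold gene Pdzk1 fell by 1.17 (SE 0.20), the carrier Slc16a9 fell by 2.79 (SE 0.48) and the amino acid transporter Slc6a19 fell by 1.57 (SE 0.34). Pdzk1ip1, which encodes a partner of Pdzk1, rose by 1.89 (SE 0.34, adjusted p = 0.00201), all by edgeR. In CPB+Nitrite 3, where Hnf4a stood at 0.24 above the sham mean, the mean log2 level of this list was -0.29. That lay inside the range of the other CPB+Nitrite libraries (-0.46 to -0.25), above the CPB range (-0.64 to -0.40) and below the sham range (-0.22 to 0.12). Single genes of the list departed from that mean: Pck1 stood at 0.35 in CPB+Nitrite 3 and at -2.63 to -1.74 in the other CPB+Nitrite libraries.

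The known FXR targets came mainly from studies of liver and intestine. Of 18 tested, 5 fell and 4 rose in CPB versus sham, with a median of -0.39. Both shares were near those of all genes, 21.5% lower and 21.7% higher. The list was not split into genes that FXR raises and genes that it lowers, so these counts do not measure FXR output. Nr0b2, the repressor that FXR induces in mouse and human liver, had means of 0.268 CPM in CPB and 4.16 CPM in sham and fell by 3.98 (SE 0.74, adjusted p = 0.00216 by edgeR). Its CPB values rest on few reads, since the lowest was 0.108 CPM. Osgin1, an oxidative stress gene, fell by 1.59 (SE 0.36), and Baat, which conjugates bile acids, fell by 2.84 (SE 0.67). The export pump Abcc2 rose by 2.88 (SE 0.68, adjusted p = 0.00643), the bile acid transporter Slc10a2 by 2.66 (SE 0.72), with means of 1.148 CPM in CPB and 0.174 CPM in sham, and the fibrinogen chain Fgb, an acute-phase gene, by 6.93 (SE 1.38), all by edgeR.

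Of 15 receptors that pair with RXRs or belong to the RXR family, 6 fell and 3 rose in CPB versus sham, with a median of -0.46. Nr1i2, the xenobiotic receptor PXR, fell by 2.39 (SE 0.40, adjusted p = 0.0015), and Thrb, a thyroid hormone receptor, fell by 1.59 (SE 0.32, adjusted p = 0.00296). The vitamin D receptor gene Vdr fell by 1.04 (SE 0.30) and the liver X receptor gene Nr1h3 fell by 0.89 (SE 0.23), while Nr1h2, its relative, rose by 0.60 (SE 0.13), all by edgeR. Coactivators and corepressors went the other way, with 10 of 22 higher, 0 lower and a median of 0.43 (at unadjusted p under 0.05, 11 were higher and 1 lower). Nrip1, a corepressor that opposes PGC-1 alpha, rose by 1.32 (SE 0.30, adjusted p = 0.00515). Crebbp, an acetyltransferase coactivator, rose by 1.07 (SE 0.21), and Kat2a, which acetylates PGC-1 alpha, rose by 0.83 (SE 0.15, adjusted p = 0.00213), all by edgeR. The arginine methyltransferase genes Prmt1 and Carm1 rose by 0.74 (SE 0.16) and 0.52 (SE 0.15). Without CPB 3, CPB 4 or sham 1, 6 of this list rose.

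Of 25 other transcription factors of the proximal tubule and its development, 6 rose and 6 fell in CPB versus sham, with a median of -0.07. Both shares were near those of all genes, 21.7% higher and 21.5% lower. Hnf4g, Esrrb and Emx1 (-1.84, SE 0.41) fell, while Pax8 rose by 1.02 (SE 0.23, adjusted p = 0.00523), the stress-induced Cebpb by 1.97 (SE 0.34, adjusted p = 0.00157) and Sox4 by 2.44 (SE 0.57, adjusted p = 0.00613), all by edgeR.

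Among 21 genes that are known to set Ppargc1a expression in other tissues, 10 rose and 3 fell in CPB versus sham, with a median of 0.49. Creb1 encodes CREB, which can bind TGACGTCA, the letters capitalised in the Ppargc1a promoter, and Crtc2 and Crtc3 encode its coactivators. Whether CREB binds that promoter in these kidneys was not tested. Crtc2 rose by 0.67 (SE 0.14, adjusted p = 0.00328), Crtc3 by 1.01 (SE 0.24, adjusted p = 0.00605) and Creb1 by 0.79 (SE 0.21, adjusted p = 0.0103), all by edgeR. The NF-kappa B genes Nfkb1 and Rela, known as repressors of Ppargc1a, rose by 2.04 (SE 0.30, adjusted p = 0.00107) and 1.37 (SE 0.21, adjusted p = 0.00109), and Smad3 rose by 1.503 (SE 0.34), by edgeR. Gucy1a1, a subunit of the guanylate cyclase that nitric oxide activates, fell by 3.07 (SE 0.54, adjusted p = 0.00177 by edgeR), with means of 0.454 CPM in CPB and 3.93 CPM in sham. In CPB+Nitrite versus CPB, Gucy1a1 had a log2 change of 2.05 (SE 0.53, adjusted p = 0.0608 by edgeR), beside the median of 1.65 for endothelial and 1.22 for fibroblast and smooth muscle markers.

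In CPB+Nitrite versus CPB, 0 genes of the 8 pathway lists were called by edgeR. At an unadjusted p under 0.05 by edgeR, 17.3% of all genes were higher and 1785 of 14664 were lower. Of 28 PPAR alpha targets 10 were higher and 1 lower, and of 30 HNF4A-dependent genes 9 were higher and 2 lower. Of 22 coactivators and corepressors 0 were higher and 7 lower. Targets of PGC-1 and the ERRs had 2 higher and 3 lower of 29, FXR targets 5 and 0 of 18, and RXR partners 6 and 1 of 15. Other transcription factors had 3 higher and 2 lower of 25, and regulators of Ppargc1a 6 and 5 of 21. DESeq2 called 4 PPAR alpha targets and 4 HNF4A-dependent genes higher and 3 coactivators and corepressors lower. It called 9.15% of all genes higher and 903 of 14605 lower. Limma voom called 0 in each of these lists. Without CPB+Nitrite 1, edgeR called 3 PPAR alpha targets higher and 1 lower, 3 HNF4A-dependent genes higher and 3 lower, and 4 coactivators and corepressors lower. In that fit 10.6% of all genes were called higher and 1289 of 14859 lower. The shares of PPAR alpha targets and HNF4A-dependent genes called higher there were near that of all genes. Leaving out 1 library called at most 6 RXR partners higher and 1 lower. The most were 4 and 1 for FXR targets and 4 and 4 for regulators of Ppargc1a. They were 3 and 2 for other transcription factors and 1 and 2 for targets of PGC-1 and the ERRs. The higher calls all came without CPB+Nitrite 1. The shares of RXR partners, FXR targets and regulators of Ppargc1a called higher exceeded that of all genes. With all libraries kept, Pck1 and Kat2a came closest, both with an adjusted p of 0.0556 by edgeR. Their log2 changes were 2.77 (SE 0.55) for Pck1 and -0.75 (SE 0.15) for Kat2a. Pck1 had 724, 1339, 5691 and 1115 CPM in CPB+Nitrite kidneys, against 318, 404, 235 and 346 CPM in CPB kidneys, so its CPB+Nitrite mean of 2217 CPM rests largely on CPB+Nitrite 3. In CPB+Nitrite versus sham, Acsl1 (-0.92, SE 0.22, adjusted p = 0.0441), Ndufs1 (-0.66, SE 0.15, adjusted p = 0.0391) and Slc22a6 (-0.63, SE 0.16, adjusted p = 0.0477) were called lower by edgeR. Plin2 (2.602, SE 0.61, adjusted p = 0.0413), Cebpb (1.73, SE 0.33, adjusted p = 0.0287), Nfkb1 (1.26, SE 0.29, adjusted p = 0.0402) and Rela (0.91, SE 0.21, adjusted p = 0.0402) were called higher. Fgb (5.56, SE 1.30, adjusted p = 0.0403 by edgeR) was called higher too, with a wide spread of 308 ± 542 CPM (SD) in CPB+Nitrite. The lower calls turned on single libraries. Over the 12 fits that left out 1 library, no PPAR alpha target was called lower in 9, no target of PGC-1 and the ERRs in 9 and no HNF4A-dependent gene in 10, while without CPB+Nitrite 3 the numbers called lower were 8, 6 and 7. In the higher direction, no PPAR alpha target was called in 10 of these fits and no FXR target in 9. Other transcription factors had 0 higher in only 5 fits and regulators of Ppargc1a in only 4. Over all genes, 0 were called without sham 2 or without CPB+Nitrite 4, and 0 in the fit of the 2 groups alone.

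The genes whose pattern over the 12 libraries was most like each member were found by the root-mean-square (RMS) difference of log2 CPM, each gene centred on its own mean, among 12460 genes of at least 2 CPM on average. For Hnf4a they were Thrb (RMS 0.19), RGD1310495 (0.20) and Klf15 (0.21), a factor known in proximal tubule metabolism. The SD of log2 CPM of Hnf4a itself over the 12 libraries was 0.85. For Ppara they were the copper pump gene Atp7b (0.27), the claudin gene Cldn16 (0.29) and Rimbp2 (0.30). For Ppargc1a they were Cpt1b (0.26), a carnitine palmitoyltransferase gene, Cyfip2 (0.29) and LOC102548389 (0.30), and for Ppargc1b Cacnb4 (0.37), Amot (0.37) and Gcm1 (0.41). Esrra was nearest to Nipsnap2 (0.11), Erlin1 (0.13) and Narf (0.14), and Nr1h4 to Erlin1 (0.12), Cdip1 (0.14) and Narf (0.15). Esrrg was nearest to Phyhipl (0.22), Sim1 (0.22) and LOC102548389 (0.25), and Rxra to Wdtc1 (0.11), Sbf2 (0.14) and Med25 (0.15). Among the members themselves the closest pair was Esrra and Nr1h4 (RMS 0.22), followed by Ppargc1a and Esrrg (0.32), and the farthest was Ppara and Rxra (0.89). The libraries fall into groups, so these values describe this set of samples.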

How the data were processed

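Sequenced RNA came from rat kidney, 12 libraries in 3 groups taken from the labels. RNA was treated with DNase and made into directional libraries, per the labels' protocols. Salmon 1.2.1, cutadapt 1.18, bcl2fastq 2.19, R 3.5.1 and build mRatBN7.2 are named in the submitters' processing notes; settings are not given in the sources used here. The deposited count table holds the authors' estimated counts per gene, not normalised (33.1% of non-zero values are not whole). The deposited scaled signal table holds the authors' counts times 1 factor per library and supplied symbols and coordinates.

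Counts were rounded, filtered with edgeR's filterByExpr (minimum count 10, leaving 14664 genes and 99.95% of reads) and scaled with TMM. All comparisons came from 1 fit with edgeR 4.0.16 (R 4.3.3; glmQLFit, glmQLFTest, two-sided) with Benjamini-Hochberg adjustment over all genes tested, at 0.05. Standard errors and intervals came from the quasi-likelihood F statistic. The biological coefficient of variation was 0.317 with 9 residual degrees of freedom, so replicate spread limits precision more than depth does. The fit was tested on simulated data. Alternatives used DESeq2 1.42.0, limma 3.58.1, other scalings, filters, a replicate block and removal of each library. RMS differences used log2 CPM with a prior count of 2.

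The members and lists were chosen with earlier results of these data known. The text names the 8 members, up to 6 genes per list with the smallest p in CPB versus sham among those called, and the 3 nearest genes of each member by RMS. Other genes with values (such as Slc34a1, Gpx3, Napsa, Creb1, Pparg, Rxrb and Prdx5) were added after values were seen. The cause of any difference was not tested. Some genes of the lists, and a motif, are not reported here.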

Additional observations from a re-analysis of the deposited data

Results flagged for a closer look

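Hnf4a in CPB+Nitrite 3 stood far from the rest of its group, at 841 CPM against 207 to 278 CPM in the other libraries. The gap to its nearest neighbour was 0.888 of the group's range, above Dixon's 95% critical value for 4 values. Hnf4a in sham 2 stood below the rest of its group, at 613 CPM against 743 to 764 CPM in the others, with a gap of 0.861 of the range. These are 2 flags among 24 groups of 4 values checked on both sides, where chance flags about 1 in 20 groups. Without sham 2, the log2 change of Hnf4a in CPB versus sham was -1.52 (SE 0.43, adjusted p = 0.022 by edgeR).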

How the results depend on the processing

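In CPB versus sham, the 6 member calls kept their direction and passed in all 21 alternatives, and 6 or 7 members passed in each. In CPB+Nitrite versus CPB, where edgeR called 0 members and 0 genes, DESeq2 called 1 member and 2239 genes, limma voom called 0 members and 1 gene, and leaving out 1 library at a time gave 0 to 2 members and 0 to 2865 genes. The highest counts came without CPB+Nitrite 1, and 4315 genes had an unadjusted p under 0.05 by edgeR. The log2 change in that comparison turned negative under limma voom for Esrrg (-0.0139) and Rxra (-0.0168). Leaving out 1 library gave -0.149 to 0.774 for Hnf4a, -0.155 to 0.355 for Esrrg and -0.0525 to 0.217 for Rxra, each lowest without CPB+Nitrite 3. In CPB+Nitrite versus sham, where edgeR called 0 members and 705 genes, DESeq2 called 3 members and 2171 genes, limma voom 6 members and 2870 genes, and a fit of the 2 groups alone 0 genes. Leaving out 1 library gave 0 to 6 members and 0 to 2976 genes, with the most without CPB+Nitrite 3. The cause of these shifts was not tested. Same-numbered libraries did not all deviate together, with correlations of -0.11 to 0.38. Differently numbered libraries were not compared in this way, so the check cannot decide whether the numbers mark pairs. With the replicate block, 7 members and 6229 genes passed in CPB versus sham (Ppargc1b included, adjusted p = 0.0308 by edgeR), 0 genes in CPB+Nitrite versus CPB and 28 in CPB+Nitrite versus sham. Depth limits Ppara and Ppargc1b most, with as few as 28 and 45 reads in a library.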
